A study of Mus musculus with 37 samples.

Results

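Across myeloid cells of the mouse, 8 genes with shared or previously known responses to IL-10 were followed, namely Jak3, Sbno2, Arid5a, Casp4, Sema6b, Ptpn1, Hmox1 and Inpp5d. They were picked by name, with earlier results of these data in view, and comprise 8 of the 6509 genes and 42 of the 16993 transcripts held in the table used here. The cells were thioglycollate-elicited peritoneal macrophages, neutrophils from pooled bone marrow that were matured overnight in GM-CSF, dendritic cells (sDCs) enriched with beads from spleen, and both eosinophils and mast cells derived from marrow cultures, all from C57Bl6cJ mice without a genetic change. Macrophages, neutrophils, sDCs and mast cells were left without treatment or received IL-10 at 100 ng/ml for 4 h, LPS at 100 ng/ml for 4 h, or IL-10 for 4 h before LPS was added for another 4 h. Eosinophils were only untreated or exposed to LPS. In the scheme of the study, LPS-exposed cells were harvested later than cells without LPS, so LPS and longer culture cannot be told apart, and in the combined group IL-10 had also been present for longer.

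IL-10 is an anti-inflammatory cytokine that signals through a receptor made of Il10ra and Il10rb chains, the kinases Jak1 and Tyk2, and the transcription factor Stat3. LPS, a component of the bacterial outer membrane, is sensed by Tlr4 and activates NF-kB and interferon-driven transcription. A gene that both agents act on can show effects that add, that multiply, or in which one agent opposes the other.

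The values are normalized tag counts per transcript, each the authors' mean of 2 replicates, and the transcripts of a gene were summed to a gene sum. With 1 mean in each of 18 groups, no spread between replicates and no test could be computed, and every difference below lacks a replicate check. A gene sum that was at least 1.5-fold higher or lower, on log2(gene sum + 1), was counted as a change of that size. All 8 genes passed the filter on low values (a highest group value of at least 10) in all 5 cell types. Because these are bulk samples, fewer cells of a type and less RNA per cell cannot be told apart. Among untreated cells, the summed markers of each of the 5 cell types were highest in the cells they define, but the neutrophil marker Ly6g stood at 161.5 in neutrophils and 188.5 in eosinophils, and eosinophil markers (3 of 9 held, Epx, Ccr3 and Alox15) summed to between 27197.5 and 30791 in the 4 neutrophil groups. The dendritic sum (Itgax and Dpp4 held) was highest in sDCs through Dpp4, at 15226 there and 17 in macrophages. Itgax went the other way, at 13861 in untreated macrophages and 4075.5 in untreated sDCs. None of the 5 T and NK cell markers was held.

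To place the genes beside the factors named above, the RefSeq promoter windows of GRCm38.p6, from 250 bases before to 50 after each start site, were searched on both strands. Windows were found for 7 of the 8 genes, 11 in all, and none was held for Hmox1. The patterns searched were TTCNNNGAA (STAT type), the same TTC and GAA with 4 bases between them, GAAA followed by GAAA with 2 bases between them (interferon response type), and GGG followed by TTCC with 3 bases between them (NF-kB type). In this order they occurred in 8.3%, 6.95%, 3.44% and 5.56% of all 32851 windows. Counted by gene, where any window could match, the shares were 9.55%, 8.01%, 3.99% and 6.31% of 27025 genes. Windows are shown because they held a match, and any link of a match to a response was not tested. Sbno2 was higher with IL-10 in 3 cell types and Casp4 with LPS in 4, while Sema6b and Inpp5d were lower with LPS in 3 cell types each. Jak3, Casp4 and Sema6b were higher with IL-10 in all 4 cell types and had no TTCNNNGAA match. Capitals mark the matches, the 2 Sbno2 windows lie at chr10:80101138-80101437 and chr10:80102653-80102952 (minus strand), that of Casp4 at chr9:5308599-5308898 (plus strand), that of Sema6b at chr17:56140294-56140593 (minus strand) and that of Inpp5d at chr1:87620062-87620361 (plus strand).
Sbno2 first window: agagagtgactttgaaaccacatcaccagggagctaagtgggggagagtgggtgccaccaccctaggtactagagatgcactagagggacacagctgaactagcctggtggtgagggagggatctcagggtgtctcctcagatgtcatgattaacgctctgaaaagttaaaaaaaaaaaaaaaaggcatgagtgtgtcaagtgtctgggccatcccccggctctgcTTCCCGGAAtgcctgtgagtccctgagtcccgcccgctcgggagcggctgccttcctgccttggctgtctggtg
Sbno2 second window: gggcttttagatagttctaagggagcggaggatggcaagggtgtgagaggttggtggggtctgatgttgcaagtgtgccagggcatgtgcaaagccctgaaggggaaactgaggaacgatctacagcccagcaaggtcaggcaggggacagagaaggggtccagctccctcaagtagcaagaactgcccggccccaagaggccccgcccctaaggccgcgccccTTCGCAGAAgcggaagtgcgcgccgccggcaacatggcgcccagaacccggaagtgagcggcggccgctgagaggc
Casp4: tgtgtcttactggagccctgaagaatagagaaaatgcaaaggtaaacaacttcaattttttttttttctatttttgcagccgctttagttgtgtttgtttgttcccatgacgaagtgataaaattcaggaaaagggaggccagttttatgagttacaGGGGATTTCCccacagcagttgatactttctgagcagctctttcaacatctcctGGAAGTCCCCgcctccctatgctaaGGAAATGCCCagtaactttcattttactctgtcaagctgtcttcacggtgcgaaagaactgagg
Sema6b: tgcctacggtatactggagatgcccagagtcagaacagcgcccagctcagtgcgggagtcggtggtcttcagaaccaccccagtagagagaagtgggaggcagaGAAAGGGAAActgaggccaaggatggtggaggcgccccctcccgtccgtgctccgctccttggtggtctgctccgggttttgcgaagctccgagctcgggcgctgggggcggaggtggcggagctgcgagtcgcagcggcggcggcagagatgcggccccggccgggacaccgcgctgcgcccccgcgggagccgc
Inpp5d: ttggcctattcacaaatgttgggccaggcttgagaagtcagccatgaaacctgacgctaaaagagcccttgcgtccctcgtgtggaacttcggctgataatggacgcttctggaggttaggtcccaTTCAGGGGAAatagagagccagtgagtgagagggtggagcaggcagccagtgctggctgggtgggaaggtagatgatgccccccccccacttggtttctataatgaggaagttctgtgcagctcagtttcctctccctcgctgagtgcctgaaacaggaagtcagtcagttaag
Each printed Sbno2 window held 1 TTCNNNGAA match, TTCCCGGAA starting 24 bases and TTCGCAGAA starting 26 bases before the respective start site, and the remaining Sbno2 window held none. The Casp4 window held 3 matches to the NF-kB pattern that share no base with each other, GGGGATTTCC at -93, GGAAGTCCCC at -39 and GGAAATGCCC at -14, the last 2 read on the opposite strand. A second Casp4 window that overlaps the first contains the same 3 matches. Sema6b held GAAAGGGAAA at -146 in 1 of its 2 windows, and Inpp5d held TTCAGGGGAA at -124. In the windows of Jak3, Arid5a and Ptpn1 these letters did not occur, which says nothing of binding there. A match is a description of the sequence and not a measured site.

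With IL-10 alone, 21 of the 32 combinations of gene and cell type (the 8 genes in the 4 cell types that received IL-10) were at least 1.5-fold higher than untreated, against 4.29% of all gene sums tested (13 were at least 2-fold higher), and 0 were lower by that much, against 4.79%. These genes were chosen for this contrast, so the counts are a description. Their median log2 fold change was 0.91, and that of all genes -0.02. Counted by cell type, 6 of the 8 genes were higher in macrophages (all genes, 5.1%), 6 in mast cells (4.57%), 5 in sDCs (4.36%) and 4 in neutrophils (3.13%). Jak3, Casp4 and Sema6b were higher in all 4 cell types, Sbno2 and Arid5a in 3, Ptpn1 in 2 and Hmox1 in 1, whereas Inpp5d lay between -0.08 and 0.14 in all 4. When LPS was present as well, 19 of 32 were at least 1.5-fold higher with IL-10 than with LPS alone (all genes, 6.73%) and 1, Hmox1 in neutrophils, was lower (8.94%), with a median of 0.79 against 0.00 for all genes. The 2 contrasts with IL-10 share no group, but the sets overlapped only in part: 15 combinations were higher with IL-10 in both settings, 6 only without LPS and 4 only with it. The 6 were Casp4 in all 4 cell types, Arid5a in macrophages and Hmox1 in mast cells, and the 4 were Sbno2 and Hmox1 in sDCs, Arid5a in neutrophils and Inpp5d in macrophages.

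**Figure D1:**
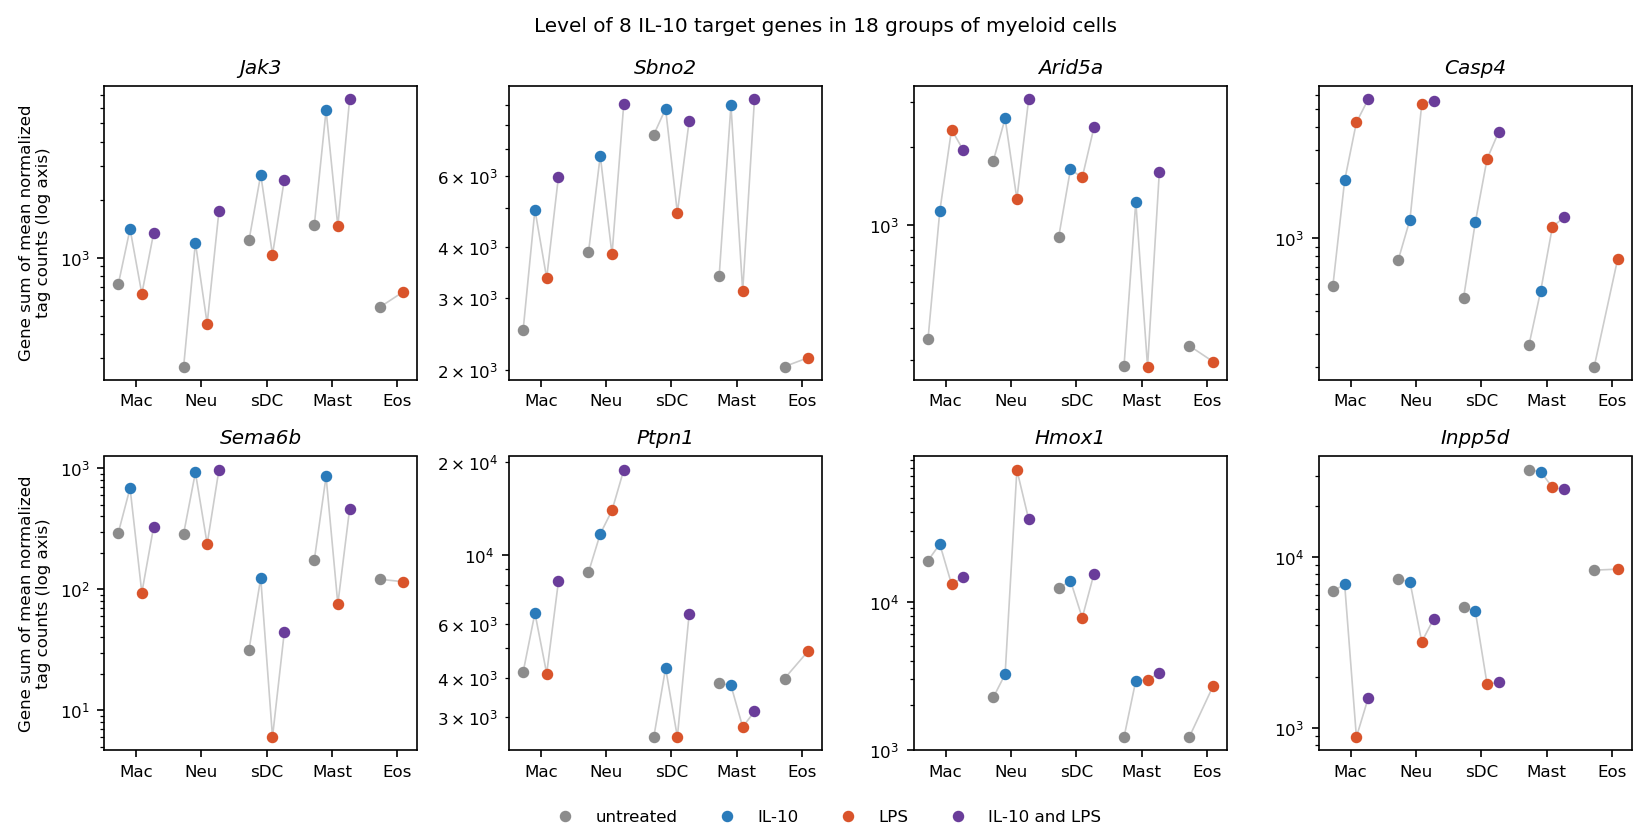
Gene sums of mean normalized tag counts (log axis, each panel with its own range) for the 8 genes in macrophages (Mac), neutrophils (Neu), sDCs, mast cells and eosinophils (Eos); each point is the mean of 1 group, with no error bar because replicate values were not used here. Jak3 and Sbno2 zigzag with IL-10, Casp4 is higher with each agent, and Hmox1 reaches 77414 in neutrophils with LPS.

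LPS alone left 10 of 32 combinations at least 1.5-fold higher (all genes, 14.3%; 6 without neutrophils) and 8 lower (20.5%). All 4 Casp4 values and Arid5a in macrophages and sDCs were among the higher ones, with Hmox1 in neutrophils and mast cells and Jak3 and Ptpn1 in neutrophils. The lower ones were Sema6b in macrophages, sDCs and mast cells, Inpp5d in macrophages, neutrophils and sDCs, and Sbno2 and Hmox1 in sDCs. In eosinophils 2 of the 8 genes were higher with LPS (all genes, 3.63%), Casp4 and Hmox1, and 0 were lower (2.21%). Over all genes the median log2 fold change with LPS was -0.15 in macrophages and -0.14 in sDCs. The scaling factors that median ratios gave for the LPS and untreated groups differed by -0.15 in macrophages and -0.11 in sDCs on the log2 scale. After rescaling with them, Sbno2 (-0.53) and Hmox1 (-0.55) in sDCs no longer passed 1.5-fold.

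To ask whether the effects add, the level with both agents was set against a sum, the untreated level plus the separate differences with IL-10 and with LPS, and against a product, the untreated level multiplied by both fold changes. The observed level lay within 1.5-fold of the sum in 27 of 32 combinations (all genes, 81.9%) and within 1.5-fold of the product in 21 (85.5%). The first count is near its share over all genes and the second is below it. In 20 combinations the level was within 1.5-fold of both, and only 11 changed by at least 1.5-fold with each agent alone. Most combinations therefore cannot tell a sum from a product. The observed level exceeded the sum by at least 1.5-fold in 1, Hmox1 in sDCs (all genes, 10.4%). It fell short of the sum in 4 (7.65%), namely Arid5a in macrophages, Hmox1 in neutrophils and Sema6b in sDCs and mast cells. At 2-fold these numbers were 0 and 2. For the product the 1.5-fold numbers were 4 (6.67%) and 7 (7.83%). The median distance on the log2 scale was 0.30 from the sum and 0.42 from the product, and 22 combinations were nearer the sum. Over all genes these distances were 0.20 and 0.18, and 42.8% of 23797 combinations were nearer the sum. The all-gene values include many genes that neither agent changed. Among the 492 combinations of all genes that were at least 1.5-fold higher with each agent alone, 83.1% were nearer the sum, with a median of -0.50 from the sum and -1.15 from the product. The untreated, IL-10 and LPS groups enter both expectations, so their errors are shared.

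**Figure D2:**
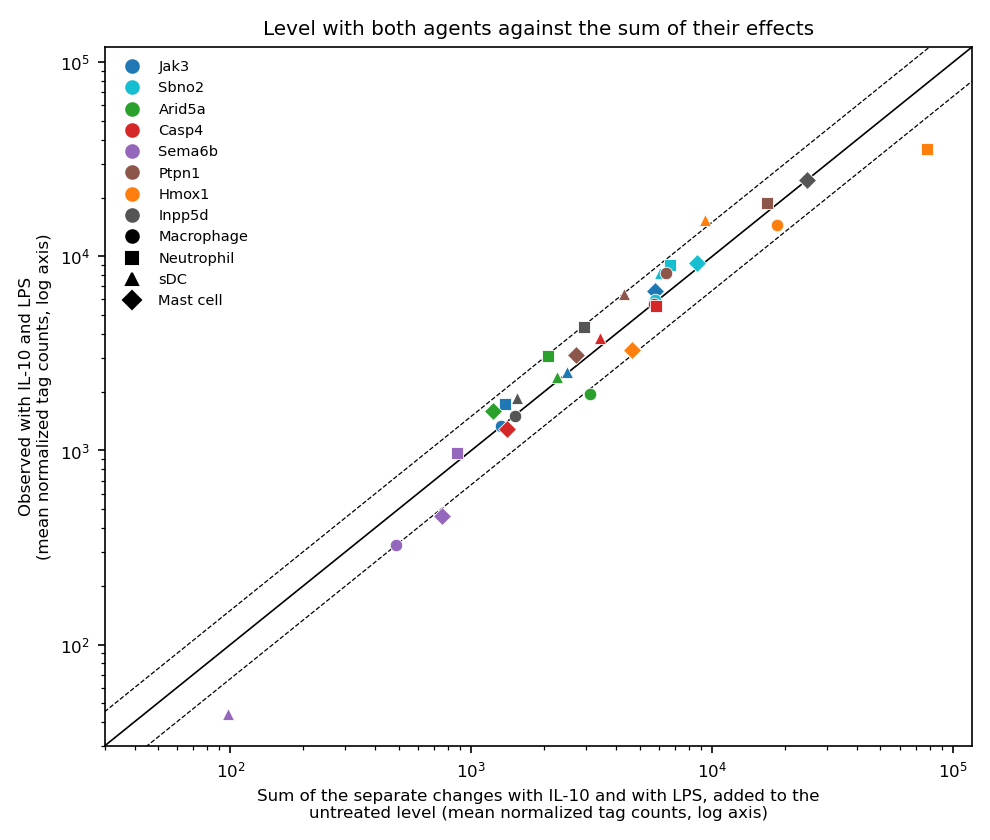
Observed gene sum with IL-10 and LPS (vertical, log axis) against the sum of the separate changes added to the untreated level (horizontal, log axis), both in mean normalized tag counts, for 8 genes (colour) in 4 cell types (shape). The solid line marks equality and the dashed lines 1.5-fold. Between the dashed lines lie 27 of 32 points (all genes, 81.9%), with Hmox1 in neutrophils and Sema6b in sDCs farthest below.

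Jak3 encodes a tyrosine kinase that serves cytokine receptors with the common gamma chain, and it was at least 1.5-fold higher with IL-10 in all 4 cell types, both without and with LPS. In macrophages its gene sum was 727.5 untreated, 1409.5 with IL-10, 649 with LPS and 1335.5 with both. In sDCs the corresponding levels were 1229, 2695.5, 1036.5 and 2529, and in mast cells 1477.5, 5817, 1455 and 6630. In these 3 cell types, and in neutrophils as well, both groups with IL-10 lay above both groups without it, whatever the LPS exposure. Neutrophils had the lowest untreated level of the 5 cell types, 272, and went to 1194 with IL-10, 454.5 with LPS and 1738 with both, so LPS also gave a higher level there (log2 fold change 0.74). IL-10 alone gave log2 fold changes of 2.13 in neutrophils, 1.98 in mast cells, 1.13 in sDCs and 0.95 in macrophages, and the neutrophil value ranked 18 of 5949 genes. The difference that IL-10 made was nearly the same number of tag counts without and with LPS in macrophages, 682 and 686.5, and in sDCs, 1466.5 and 1492.5. It was larger with LPS in neutrophils (922 and 1283.5) and mast cells (4339.5 and 5175), and the observed level differed from the sum by 0.00 in macrophages, 0.01 in sDCs, 0.19 in mast cells and 0.34 in neutrophils on the log2 scale. Eosinophils had 552.5 untreated and 664 with LPS.

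Of 21 pairs of Jak3 transcript and cell type that passed the filter, from 6 transcripts, 21 were at least 1.5-fold higher with IL-10. With LPS alone these pairs diverged, 8 being higher and 6 lower. The filter takes the highest group, so some pairs passed only through a group with IL-10. ENSMUST00000165138 in neutrophils, for example, stood at 1.5 untreated, 14 with IL-10, 2.5 with LPS and 4 with both. Such pairs enter the count because they are high with IL-10, and no share over all transcripts was computed. The gene lies at chr8:74200195-74214474 (plus strand, NCBIM37), and Insl3, annotated on the same strand at chr8:74213113-74214474, lies wholly within its last part over 1362 bases. Tags in that stretch could be assigned to either gene. Insl3 had far fewer tag counts than Jak3, between 1 and 177, and its level also was higher with IL-10 alone, by 1.87 in mast cells and 2.46 in neutrophils on the log2 scale. Of the 3 largest Jak3 transcripts, ENSMUST00000110012 and ENSMUST00000110013 end before Insl3 begins (74212457 and 74212455), and in neutrophils they went from 166 to 695.5 and from 32 to 188 with IL-10.

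Sbno2 encodes a homolog of the fly protein strawberry notch, a transcriptional co-regulator known as a target of IL-10 signalling. In neutrophils it stood at 3894.5 untreated, 6729 with IL-10, 3844.5 with LPS and 9044 with both. Macrophages had 2506, 4952, 3363 and 5973 and mast cells 3403, 8959, 3123 and 9268 in the same order. Again each IL-10 group lay above its partner without IL-10, and in neutrophils and mast cells LPS alone changed little (log2 fold change -0.02 and -0.12). sDCs had the highest untreated level, 7590, with 8786 after IL-10 (0.21), 4870.5 after LPS (-0.64) and 8180 after both. There IL-10 was below 1.5-fold alone but 0.75 higher on the log2 scale in the presence of LPS, where it brought the level to near that of untreated cells. The IL-10 difference in sDCs was 1196 tag counts without and 3309.5 with LPS, and in neutrophils 2834.5 and 5199.5. Mast cells (5556 and 6145) and macrophages (2446 and 2610) showed more even steps. Log2 of observed over sum ran from 0.04 in macrophages and 0.09 in mast cells to 0.43 in sDCs and 0.44 in neutrophils, none of them beyond 1.5-fold. Of its 2 transcripts, the longer ENSMUST00000042771 carried 89.9% of the tag counts. The shorter ENSMUST00000092316 was higher with IL-10 in all 4 cell types, including sDCs, where it stood at 155 untreated, 319 with IL-10, 92 with LPS and 509 with both. Sbno2 lies at chr10:79520161-79565443 (minus strand, NCBIM37), and eosinophils had 2034.5 untreated and 2139 with LPS.

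Casp4 encodes caspase-11, the inflammatory caspase that binds intracellular LPS and triggers pyroptosis. Both agents gave higher levels of it in every cell type that received both. Macrophages had 551.5 untreated, 2054 with IL-10, 4244.5 with LPS and 5658 with both. sDCs had 474, 1218.5, 2685.5 and 3786.5, and mast cells 262, 516, 1153 and 1296. The order untreated, IL-10, LPS, both was the same in these cells and in neutrophils, where the levels were 760.5, 1261, 5321.5 and 5560.5. On the log2 scale LPS alone gave between 2.13 (mast cells) and 2.94 (macrophages), IL-10 alone between 0.73 (neutrophils) and 1.90 (macrophages), and IL-10 on top of LPS between 0.06 (neutrophils) and 0.50 (sDCs). None of the last 4 values reached 1.5-fold. Expressed as tag counts, however, IL-10 added 1502.5 without LPS and 1413.5 with it in macrophages, and 744.5 and 1101 in sDCs. Lower additions with LPS were seen in mast cells, 254 and 143, and neutrophils, 500.5 and 239. All 4 levels with both agents were within 1.5-fold of the sum (log2 -0.02, -0.07, 0.14 and -0.12 in macrophages, neutrophils, sDCs and mast cells) and below the product by more than 1.5-fold (-1.48, -0.67, -0.86 and -0.81). The same levels were also within 1.5-fold of LPS alone, so lying near the sum does not show that the effects add. In neutrophils the level with both was about as far from LPS alone (0.06) as from the sum (-0.07). Eosinophils went from 201 to 773.5 with LPS (1.94). The gene is at chr9:5308828-5336783 (plus strand, NCBIM37). Among its 7 transcripts, all 26 pairs of transcript and cell type that passed the filter in the 4 cell types with IL-10 groups were at least 1.5-fold higher with LPS and 20 were higher with IL-10. Some of these pairs passed the filter only through a group with LPS, such as ENSMUST00000159461 in neutrophils, at 22 with LPS and 0 in the other groups. In eosinophils, which are not among these pairs, the minor transcript ENSMUST00000162846 stood at 11.5 untreated and was listed at 0 with LPS. The protein-coding ENSMUST00000027012 carried 77.4% of the tag counts.

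**Figure D3:**
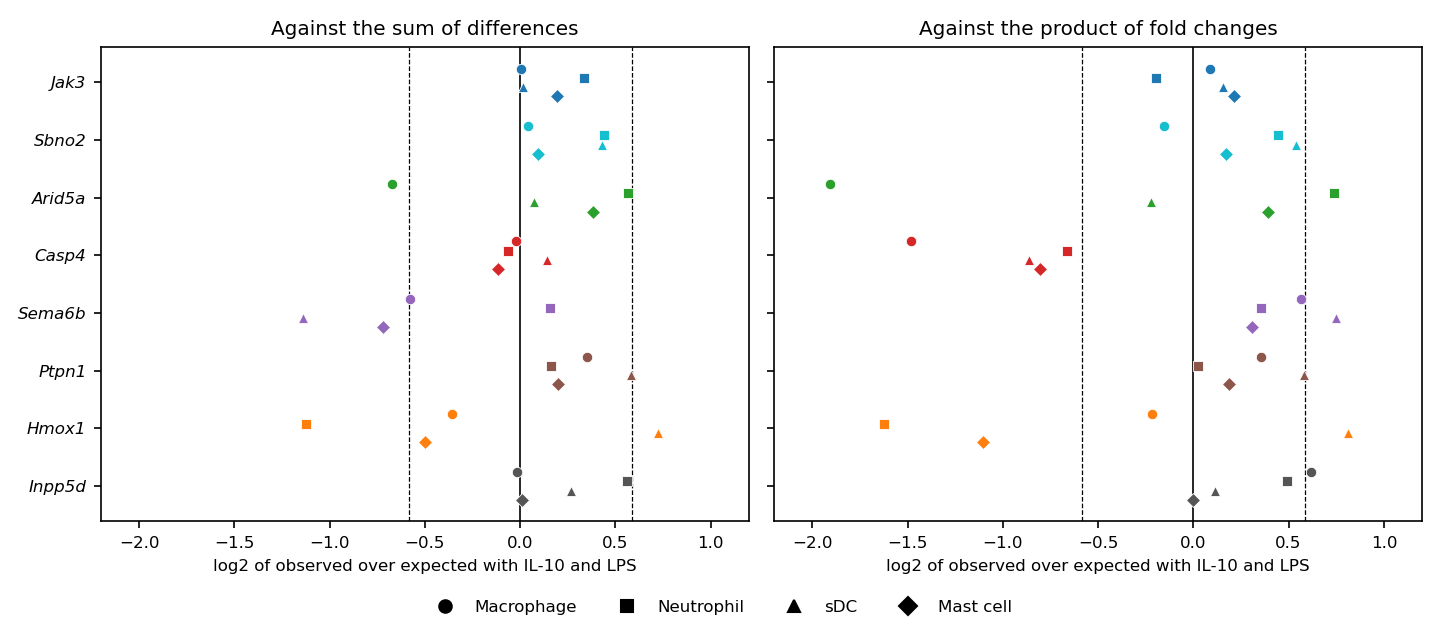
Log2 of the observed level with IL-10 and LPS over the level expected from the sum (left) and from the product (right), for 8 genes in 4 cell types (shape); the solid line is 0 and the dashed lines mark 1.5-fold. Casp4 lies close to 0 for the sum and between -1.48 and -0.67 for the product, whereas 3 of 4 Sema6b points lie left of -0.5 for the sum and all 4 right of 0 for the product.

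Arid5a encodes an AT-rich interaction domain protein that binds RNA and stabilizes messages such as that of Il6, and the order of its groups differed between cell types. Mast cells had 284.5 untreated, 1230.5 with IL-10, 282.5 with LPS and 1601 with both, so that only the IL-10 groups were high. In macrophages each agent alone gave a higher level, 1130 with IL-10 and 2342 with LPS against 361.5 untreated, but the level with both, 1947.5, was below that with LPS alone. Log2 of observed over expected was -0.68 for the sum and -1.91 for the product, both beyond 1.5-fold. sDCs had 899.5 untreated, 1641 with IL-10, 1527 with LPS and 2388.5 with both, 0.07 from the sum. Neutrophils, which had the highest untreated level, 1774, went to 2587.5 with IL-10, down to 1261 with LPS and up to 3067 with both. IL-10 alone thus stayed under 1.5-fold in neutrophils (0.54) while IL-10 in the presence of LPS was above it (1.28). The level with both exceeded the product there by 0.74 and the sum by 0.56, the latter just under 1.5-fold (0.58 on this scale). Eosinophils had 340 and 295.5. Arid5a (chr1:36364578-36380874, plus strand, NCBIM37) had 9 transcripts, and the most abundant, ENSMUST00000116629, is annotated as a target of nonsense-mediated decay and carried 34.7% of the tag counts. In macrophages it stood at 85.5 untreated, 472.5 with IL-10, 940 with LPS and 525 with both. The coding transcript ENSMUST00000115030 showed 156.5, 230, 889.5 and 944 there, so the lower level with both agents than with LPS was not shared by all transcripts.

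Sema6b encodes a transmembrane semaphorin, a family known for axon guidance, and it was higher with IL-10 in all 4 cell types and lower with LPS in 3. Macrophages had 293 untreated, 687 with IL-10, 93.5 with LPS and 326 with both. Mast cells had 175, 856, 75.5 and 459.5. In both cell types IL-10 gave the highest and LPS the lowest level, with the combined group between them. In sDCs the gene was near the low end of what the table holds, 31.5, 123.5, 6 and 44, with the same order of groups. Neutrophils differed in that LPS alone changed little, 288.5 untreated and 237 with LPS, against 924 with IL-10 and 971 with both. IL-10 gave a larger fold with LPS than without it in all 4 cell types, with log2 values of 2.68 against 1.94 in sDCs, 2.59 against 2.28 in mast cells, 2.03 against 1.68 in neutrophils and 1.79 against 1.23 in macrophages. The sDC values rest on an LPS level of 6, and with a pseudocount of 10 in place of 1 they were 1.75 and 1.69. The observed level was nevertheless under the sum by more than 1.5-fold in sDCs (-1.14) and mast cells (-0.72) and just within it in macrophages (-0.58), and above the product in all 4, by 0.31 in mast cells to 0.75 in sDCs, where the excess was 0.07 with a pseudocount of 10 and no longer passed 1.5-fold. Across all genes, 192 combinations were higher with IL-10 and lower with LPS by 1.5-fold, and their medians were -0.58 from the sum and 0.26 from the product. Eosinophils had 121 and 115.5. The gene (chr17:56262508-56279766, minus strand, NCBIM37) had 2 transcripts, of which ENSMUST00000167545 carried 96.9% of the tag counts. The other, ENSMUST00000001256, never exceeded 49 in any group, and in sDCs it made up 21.5 of the untreated 31.5.

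**Figure D4:**
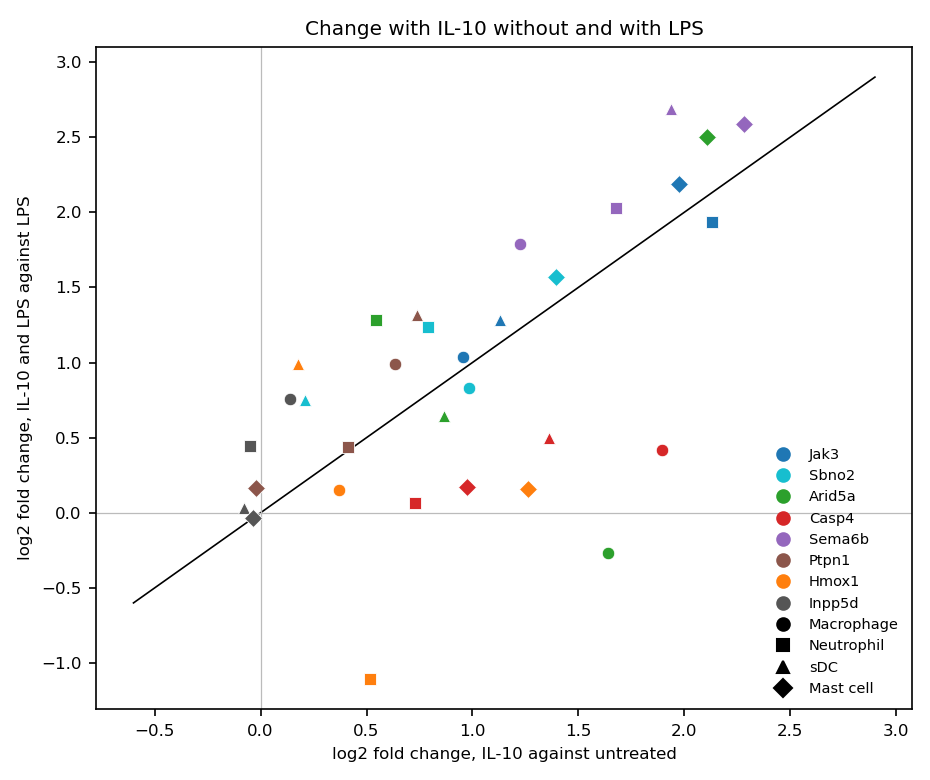
Log2 fold change of IL-10 and LPS against LPS (vertical) plotted on that of IL-10 against untreated (horizontal) for 8 genes (colour) in 4 cell types (shape), with a line of equality; the axes share no group. All 4 Sema6b points lie above the line, and the points farthest below it are Arid5a in macrophages, Hmox1 in neutrophils and mast cells, and Casp4 in macrophages.

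Ptpn1 and Inpp5d encode phosphatases that restrain signalling. PTP1B, the product of Ptpn1, removes phosphate from tyrosine residues of receptor-associated kinases, and SHIP1, the product of Inpp5d, acts on the membrane lipid made by PI3-kinase. Ptpn1 was highest in neutrophils, with 8788.5 untreated, 11690 with IL-10, 13929.5 with LPS and 18826.5 with both. Macrophages had 4185, 6487, 4137.5 and 8208.5, and sDCs 2584, 4306, 2578.5 and 6431. In these 2 cell types the level with LPS alone was close to the untreated one (log2 fold change -0.02 and 0.00), yet the IL-10 difference was larger with LPS, 4071 against 2302 tag counts in macrophages and 3852.5 against 1722 in sDCs. Its sDC level with both agents was 0.58 above the sum, just under 1.5-fold, and 0.59, just over it, after rescaling by median ratios. Neutrophils did not reach 1.5-fold with IL-10, alone (0.41) or with LPS (0.43), and neither did mast cells, with 3846.5 untreated, 3790 with IL-10, 2779.5 with LPS and 3119 with both. Eosinophils had 3985 and 4883.5. Ptpn1 lies at chr2:167757557-167804885 (plus strand, NCBIM37), and ENSMUST00000029053, its 1 protein-coding transcript of 5, carried 91.8% of the tag counts.

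Inpp5d was highest in mast cells, where it stayed between 24903.5 and 32372.5 in the 4 groups. In macrophages it was 6332 untreated, 6964 with IL-10, 890.5 with LPS and 1502.5 with both. Neutrophils had 7440, 7181, 3199.5 and 4344.5, and sDCs 5107, 4836.5, 1815.5 and 1859. LPS thus gave a lower level in these 3 cell types (-2.83, -1.22 and -1.49), while IL-10 alone changed none of them by 1.5-fold. With LPS present, IL-10 gave 0.75 in macrophages and 0.44 in neutrophils, and values of 0.03 and -0.04 in sDCs and mast cells. The macrophage level with both was -0.02 from the sum and 0.62 above the product. Eosinophils stayed at 8403 and 8518. Inpp5d (chr1:89516887-89617082, plus strand, NCBIM37) had 9 transcripts, and of the 32 transcript and cell type pairs that passed the filter 23 were lower with LPS. Some of these pairs passed only through the untreated group, such as ENSMUST00000072999 in macrophages, at 27 untreated and 0 in the other groups. The largest transcript, ENSMUST00000169754, went from 3057 to 360 with LPS and 964.5 with both in macrophages. With LPS and with both, ENSMUST00000042275 stood there at 162 and 181, ENSMUST00000170300 at 115.5 and 180, and ENSMUST00000167032 at 162.5 and 7. The higher macrophage level with both agents than with LPS was thus not shared by all transcripts.

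Hmox1 encodes heme oxygenase-1, which breaks down heme and is induced by oxidative stress, and it had no shared pattern. Untreated levels ran from 1218 in mast cells and 1221 in eosinophils to 12266 in sDCs and 18905.5 in macrophages. Neutrophils had 2258 untreated, 3233 with IL-10, 77414 with LPS and 35953.5 with both, so that the LPS level was the highest of all 18 groups. Its log2 fold change of 5.10 with LPS ranked 28 of 5949 genes, and IL-10 in the presence of LPS gave a log2 fold change of -1.11. Log2 of observed over expected was -1.12 for the sum and -1.62 for the product. Within the same neutrophil groups the summed neutrophil markers (3 of 9 held, Ly6g, Mmp8 and Cxcr2) stood at 175344 untreated, 175312 with IL-10, 20633.5 with LPS and 49459.5 with both. Mmp8 and Cxcr2 made up nearly all of this sum. Ly6g did not follow it, at 161.5 untreated, 158.5 with LPS and 70.5 with both. The summed macrophage markers (3 of 8 held, Emr1, Cd68 and Mrc1) were 7588.5, 8398, 17932 and 10158, but did not move together. Emr1 stood at 4346 untreated, 14667.5 with LPS and 5157.5 with both, Cd68 at 2788, 3140 and 4387.5, and Mrc1 at 454.5, 124.5 and 613. The part of these marker levels in the Hmox1 result was not tested. Macrophages themselves had Hmox1 at 18905.5 untreated, 24436.5 with IL-10, 13100.5 with LPS and 14562.5 with both, all below the neutrophil level with LPS.

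The other cell types showed Hmox1 patterns of their own. In mast cells each of the 3 treatments gave a similar level, 2923.5 with IL-10, 2958.5 with LPS and 3300.5 with both against 1218 untreated. Against the sum this was -0.50 and against the product -1.10 on the log2 scale. sDCs had 12266 untreated, 13842 with IL-10, 7769.5 with LPS and 15406 with both. There IL-10 alone changed little (0.17), but with LPS present it gave a level 0.99 higher, which was 0.72 above the sum and 0.81 above the product. Dendritic markers (2 of 8 held, Itgax and Dpp4) summed to 19301.5, 18592.5, 4497.5 and 4113.5 in those groups, lower with LPS and of similar size with LPS and with both. Eosinophils went from 1221 to 2673.5 with LPS. Hmox1 lies at chr8:77617490-77624495 (plus strand, NCBIM37), and ENSMUST00000005548 carried 99.5% of its tag counts.

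**Figure D5:**
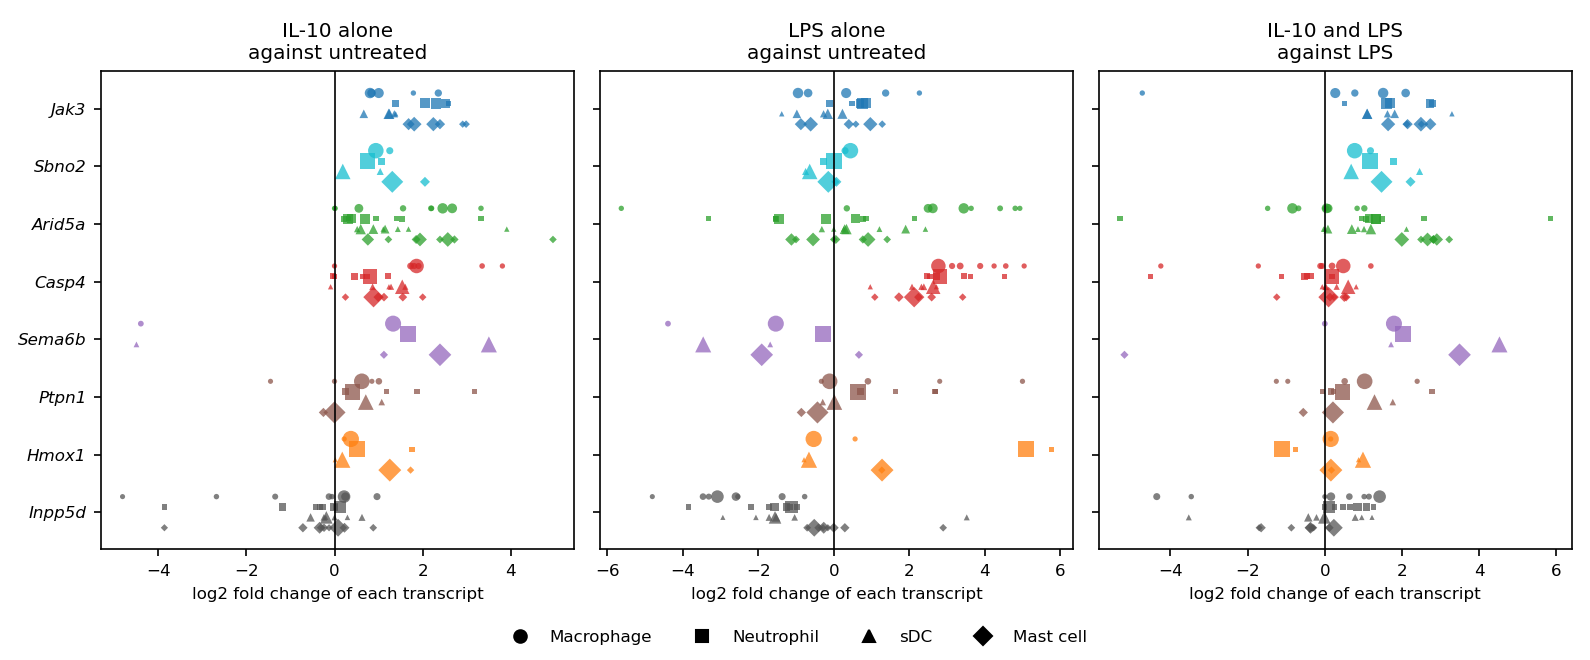
Log2 fold change of each transcript of the 8 genes that passed the filter, in 4 cell types (shape), with IL-10 alone (left), LPS alone (middle) and IL-10 and LPS against LPS (right); the point area grows with the share of the gene's tag counts. Jak3 points all lie right of 0 with IL-10, and those of Casp4 all lie right of 0 with LPS, while small points far from 0 belong to transcripts with few tag counts. Some points passed the filter through a treated group alone.

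The genes also differed in where they were expressed before treatment. Among untreated cells, Jak3 and Inpp5d were highest in mast cells, Arid5a, Casp4 and Ptpn1 in neutrophils, Sbno2 in sDCs, and Hmox1 and Sema6b in macrophages. The ratio of the highest to the lowest untreated level ran from 3.40 for Ptpn1 to 15.5 for Hmox1. Some neighbours in these orders were close, such as Sema6b in macrophages (293) and neutrophils (288.5) and Hmox1 in eosinophils (1221) and mast cells (1218), and without replicate values it cannot be said which neighbours differ.

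After the mean of each cell type was removed, Jak3 and Sbno2 were each other's most similar gene over the 18 groups among 6247 genes searched (Pearson r = 0.92), and Jak3 and Sema6b had r = 0.82. Casp4 was most similar to Casp1, another inflammatory caspase, at 0.93, and Inpp5d to Cerk, a ceramide kinase, at 0.98. The nearest genes of Sema6b, Arid5a, Ptpn1 and Hmox1 were Ccdc134 (0.95), Pitpnb (0.90), Stfa3 (0.88) and Plk3 (0.93). Stfa3 stood at 66 to 303 in neutrophils but at 0 to 17.5 in the other cell types, so its coefficient rests largely on low values. Pitpnb changed by at most 0.36 on the log2 scale in any contrast. Ccdc134 stayed under 1.5-fold with IL-10 alone in all 4 cell types (0.12 to 0.58). For IL-10 and LPS against LPS in neutrophils, Plk3 had 0.01 where Hmox1 had -1.11. Casp4 and Inpp5d, one higher and one lower with LPS, had r = -0.74. These coefficients describe 18 group means that share a normalization and, within a cell type, the same untreated cells.

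Of 54 genes listed for the IL-10 and JAK-STAT pathway, 22 were held in the table. In mast cells, IL-10 alone gave at least 1.5-fold higher levels for 2 of them (background 4.57%), Il10 (1.5 untreated and 159.5 with IL-10) and Pim2 (715.5 and 4836.5), and a lower level for 1 (8.2%), Socs2 (561.5 and 308.5). LPS alone gave higher levels for 14 of the 22 in macrophages (background 19.4%), 7 in mast cells (8.04%), 11 in neutrophils (14.7%) and 10 in sDCs (14.7%). Il10 passed the filter in mast cells only through the groups with IL-10 (5 with LPS, 208.5 with both). In neutrophils it passed only through the groups with LPS (1.5 untreated, 0.5 with IL-10, 1601 with LPS). It enters these counts because it is high in those groups. The receptor chain Il10ra was present in every untreated cell type, from 950.5 in eosinophils to 10905.5 in mast cells.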

How the data were processed

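RNA-seq was done on 36 samples in 18 groups, 2 per group, from independent mice or pools, and 1 further sample of the 37 (T cells) had no column here. The authors aligned reads with Bowtie 0.12.9, estimated tag counts for Ensembl transcripts (mm9) with RSEM 1.2.1, corrected for GC content and deposited replicate means, treated here as a score. In macrophages, the first replicate without treatment and with IL-10 re-used an earlier library. The macrophage LPS contrasts, sums and products set these groups against the groups with LPS. The part of this re-use in the macrophage results was not tested. All 18 columns share the maximum 185338 and all values are multiples of 0.5. Depth cannot be read from such means, so no counting interval is given, and a value of 0 is listed at 0.

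Of 17015 complete lines, 22 (0.129%) had no gene name and were left out, as was 1 broken line. Gene sums, log2(gene sum + 1) fold changes and expected levels were computed with Python 3.11.15, numpy 2.4.6 and pandas 2.3.3 and drawn with matplotlib 3.10.9, and the procedure was tested on simulated data. The members, lists and rules were chosen with earlier results of these data known. Named were the 8 genes, pathway genes changed 1.5-fold with IL-10 in the same direction in at least 3 of 4 cell types, and each member's most correlated gene among those with a highest group sum of at least 50. Some results for the pathway list are not reported here. Genes singled out beside these (Insl3, Il10ra and counts of 5 or fewer) were chosen after their values were seen. Gene positions come from GENCODE vM1 (NCBIM37). Alternatives were another fold, pseudocount, filter and scaling, the largest transcript, the product, and leaving out cell types.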

Additional observations from a re-analysis of the deposited data

Results flagged for a closer look

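Hmox1 stood out because the change under the same contrast pointed in opposite directions in different cell types, on group means and with no test of the difference. With LPS alone its log2 fold change was 5.10 in neutrophils, 1.28 in mast cells and 1.13 in eosinophils, but -0.66 in sDCs. With IL-10 and LPS against LPS it was -1.11 in neutrophils and 0.99 in sDCs. Log2 of observed over the sum of both effects was -1.12 in neutrophils and 0.72 in sDCs. After rescaling by median ratios the LPS value in sDCs was -0.55 and no longer passed 1.5-fold. These differences between cell types were not tested.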

How the results depend on the processing

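No paired analysis was possible because each column is a mean of replicates and carries no replicate number, and leaving out single replicates could not be done for the same reason. In all, 640 member values were recomputed under a pseudocount of 10, no filter, a filter of 50, rescaling, or the largest transcript. Of these, 627 kept their side of 1.5-fold, 13 moved, and 0 that had passed 1.5-fold reversed sign. All members pass both filters, so the 128 values under each filter setting could not change. The sign of values within 1.5-fold was not compared, and some changed it with rescaling, such as Ptpn1 with LPS in macrophages (-0.02 to 0.14). Of the 13 that moved, 10 did so with the largest transcript in place of the gene sum and 3 with rescaling. Combinations higher with IL-10 alone numbered 13 rather than 21 at 2-fold, those above the sum 0 rather than 1 and those below it 2 rather than 4. With the largest transcript, 2 were lower with IL-10 and LPS against LPS (gene sums, 1) and 3 were above the sum, and with rescaling 2 were above it. Against the product 4 were above and 7 below (3 and 7 with a pseudocount of 10, a setting chosen after seeing the data). Leaving out each cell type in turn gave 15 to 17 higher with IL-10, 6 to 8 higher with LPS (6 without neutrophils), 13 to 15 higher and 0 to 1 lower with both against LPS (0 without neutrophils), 0 to 1 above the sum (0 without sDCs) and 3 below it. Low values, as for Sema6b in sDCs, cannot be given a counting error from these means.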
